A study of Homo sapiens with 6 samples.

Results

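The adenylate kinases AK1, AK3, AK4, AK5, AK6, AK7, AK8 and AK9 were followed in RNA-seq of PANC-1 cells, a line of human pancreatic carcinoma cells. These 8 of the 58825 genes in the deposited table were chosen by name around AK4, which was picked for its lower level after treatment with maslinic acid (MA), a triterpene of olive skin. The values of AK4 between the groups are therefore a description with no test. The remaining members are in the family by name only. The MA PANC-1 group held 3 samples treated with 40 μM MA for 24 h, and the PANC-1 group held 3 samples of the same line without MA, called untreated here. The methods name DMSO as the control in culture, and the labels do not say whether these samples received it. The study calls the samples biological replicates of a single cell line, so the spread between them is that between cultures of the line, and differences between people cannot be seen. For each gene and sample the authors deposited an FPKM value, which is the expression per kilobase of gene and per sequencing depth, and an estimated count. Values of a group are given throughout in the order of its samples 1, 2 and 3. Totals of the estimated counts were 56978375, 63984133 and 58181114 for the treated and 70275355, 65607669 and 59422939 for the untreated samples. On the first principal component of the expression values, the treated samples were at −44.3, −89.3 and 25.6 and the untreated samples at 28.0, 24.2 and 55.8. MA PANC-1 2 lay farthest out, followed by PANC-1 3 on the opposite side and then by MA PANC-1 1. MA PANC-1 3 lay among the untreated samples.

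The cells were checked against markers of their type and of other cell types. The epithelial keratins KRT8 and KRT18 were at 141 to 225 and 278 to 338 FPKM over the 6 samples, and the mesenchymal gene VIM was at 521 to 754 FPKM, with CDH2 at 12.2 to 17.3 FPKM. The ductal keratin KRT7 was low, at 1.40 to 2.19 FPKM, and KRT19 was at or near 0, with no sample above 0.109 FPKM. The acinar genes PRSS1 and CPA1 and the T cell gene CD3E had no count in any sample, and CELA3A, PECAM1, VWF, PTPRC and DCN had at most 16 counts in a sample. Of the fibroblast genes, COL1A1 was at 2.64 to 5.96 and LUM at 0.351 to 0.616 FPKM. In such bulk samples, fewer cells of a type and less RNA per cell cannot be told apart.

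Adenylate kinases move a phosphate group between adenine nucleotides, most simply by turning ATP and AMP into a pair of ADP molecules, and so keep the cell's AMP, ADP and ATP in balance. The members differ in where they work. AK1 is the main cytosolic form, AK3 and AK4 lie in the mitochondrial matrix, where AK3 uses GTP as its phosphate donor, AK6 is a nuclear protein with a role in ribosome assembly, and AK7 and AK8 are best known from cilia and flagella. AK4 is a close relative of AK3 and is known as a gene induced under low oxygen. The deposited annotation placed all 8 members in the KEGG pathway of purine metabolism, and gave 7 of them, all but AK9, the GO term adenylate kinase activity. AK3 and AK4 were the 2 members annotated to the mitochondrial matrix, and AK1, AK4, AK5, AK7 and AK8 were the 5 in the KEGG pathway of thiamine metabolism.

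AK4 (ENSG00000162433) lies on chromosome 1 of GRCh38, at 65147549 to 65232145 on the plus strand. The GENCODE annotation gives it 8 transcripts, 4 of them protein coding, and the coding sequence of ENST00000327299, which has 5 exons, takes 669 of its 6836 bases. The level of AK4 was 3.96, 4.37 and 3.95 FPKM in the treated samples, and 15.7, 14.3 and 11.2 FPKM in the untreated samples. The groups did not overlap, the treated samples lay close together, and the untreated samples spread more widely. For comparison, 11.1% of all genes tested were lower after MA with no overlap between the groups. The mean was 13.7 ± 2.30 FPKM (SD, n = 3) in PANC-1 and 4.09 ± 0.241 FPKM (SD, n = 3) in MA treated cells. Its log2 fold change in edgeR's quasi-likelihood fit was −1.70 (standard error 0.15), and it lay between −1.83 and −1.60 with each sample left out in turn.

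AK3 (ENSG00000147853, chromosome 9, 4709556 to 4741799, minus strand), the other kinase of the matrix, was at 7.01, 5.69 and 7.61 FPKM in the treated samples and at 7.08, 7.32 and 6.90 FPKM in the untreated samples. The PANC-1 values lay inside the range of the treated samples. The log2 fold change of AK3 was −0.04 with a standard error of 0.12 (adjusted p = 0.920 by edgeR's quasi-likelihood test with Benjamini-Hochberg adjustment over all genes tested). The coding sequences of AK3 and AK4 were 68.9% identical over 634 aligned bases, and they shared no identical stretch of 150 bases, the length of a read. Set against AK3 in the same sample, AK4 was at 0.566, 0.768 and 0.519 times its FPKM in the treated samples, and at 2.21, 1.95 and 1.62 times in the untreated samples. By the listed FPKM, AK4 was thus the higher of the pair in every untreated sample and the lower in every treated one. Counts listed under the pseudogenes of AK4, given below, are not part of these values, and the split is uncertain. The summed level of both genes was 10.9 ± 0.752 FPKM (SD, n = 3) in MA PANC-1 and 20.8 ± 2.44 FPKM (SD, n = 3) in PANC-1 cells, a sum that carries the difference in AK4.

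**Figure D1:**
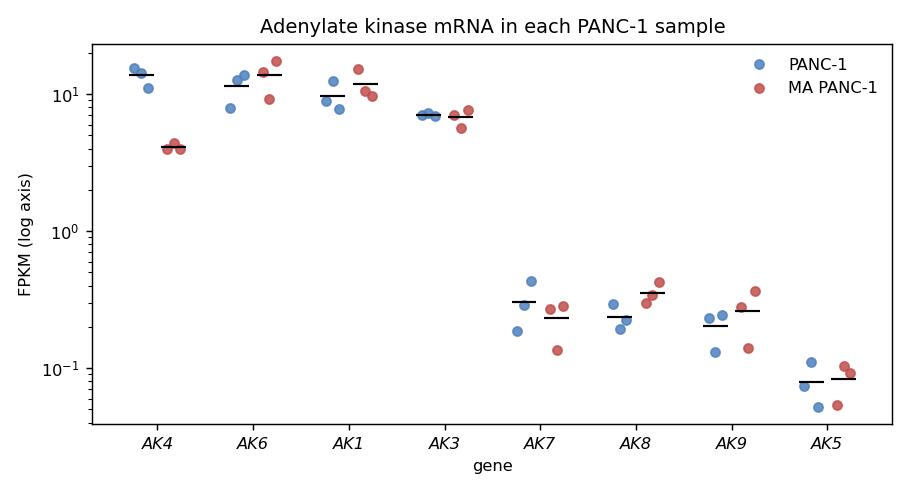
FPKM on a log axis of each adenylate kinase in each PANC-1 (blue) and MA PANC-1 (red) sample, with bars at the group means. AK4, AK6, AK1 and AK3 lie above 3.9 FPKM in every sample and the other 4 members below 0.5 FPKM, and AK4 and AK8 are the 2 genes whose groups do not overlap.

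AK4 has 6 processed pseudogenes in the annotation, copies of its mRNA elsewhere in the genome, and part of its reads cannot be told from theirs by sequence. AK4P1 (ENSG00000263535) lies at 31345519 to 31346190 on the plus strand of chromosome 17, inside the span of NF1 and on its strand, and overlapped none of the 389 annotated exons of NF1. Its 672 bases differed from the AK4 coding sequence with its stop codon at 2 positions, counted from 1 at the A of the start codon. The stretches around both positions are shown because they are where, within the coding sequence, a read of AK4P1 can be separated from one of AK4. They are written 5′ to 3′ from the GENCODE transcripts of GRCh38, with the differing base in capitals. The first change is C237T, in bases 207 to 267, which for AK4P1 is chr17:31345725-31345785 on the plus strand:
AK4: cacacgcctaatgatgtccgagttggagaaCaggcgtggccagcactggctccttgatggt
AK4P1: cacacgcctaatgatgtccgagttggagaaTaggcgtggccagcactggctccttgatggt
The other is G465A, in bases 435 to 495, which for AK4P1 is chr17:31345953-31346013 on the plus strand:
AK4: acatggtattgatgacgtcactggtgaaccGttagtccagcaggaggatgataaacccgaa
AK4P1: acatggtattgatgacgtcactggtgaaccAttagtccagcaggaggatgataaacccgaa

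Between and beside these positions the genes were the same base for base, with a longest identical run of 236 bases. Of the 523 stretches of 150 bases in AK4P1, 223 occur unchanged in the AK4 mRNA. AK4P3, on chromosome 12, differed at 5 of 669 positions and shared 28 of its 520 stretches. The other 4 pseudogenes, AK4P2, AK4P4, AK4P5 and AK4P6, were 86.1% to 96.0% identical to AK4, shared no such stretch and had no count in any sample. How the authors' program divided reads between identical stretches is not given in the sources used here, so the split between AK4 and these copies is uncertain.

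AK4P1 had estimated counts of 1344, 1030 and 1191 in the treated samples, and 1424, 1317 and 1383 in the untreated samples. AK4 itself had 2035, 2537 and 2082 counts in the treated samples, and 9950, 8493 and 5987 in the untreated samples. The counts of AK4P1 were below those of AK4 in each sample. Per length the order was the other way, with AK4P1 above AK4 in all 6 samples and at up to 29.5 FPKM in the treated and 29.1 FPKM in the untreated ones. The log2 fold change of AK4P1 was −0.05 with a standard error of 0.15 (adjusted p = 0.923 by edgeR's quasi-likelihood test) and that of AK4P3 0.06 (standard error 0.32, adjusted p = 0.956), and their groups overlapped. The counts of AK4 summed with all genes that overlap it on its strand and with its pseudogenes, 8 genes in all, were 3511, 3756 and 3487 in the treated and 11649, 10004 and 7484 in the untreated samples. The groups stayed apart, and the log2 fold change of the sum was −1.26 (standard error 0.12).

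**Figure D2:**
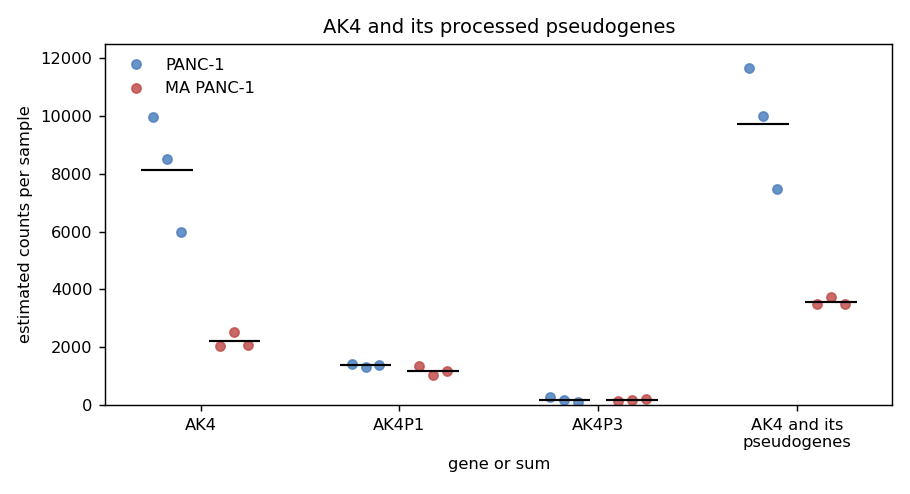
Estimated counts per sample of AK4, of the 2 pseudogenes with counts and of AK4 summed with its pseudogenes and overlapping genes, with bars at the group means (blue PANC-1, red MA PANC-1). AK4 and the sum separate the groups, from 2035 to 2537 against 5987 to 9950 counts for AK4, while the groups of AK4P1 and AK4P3 overlap.

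Among the cytosolic and nuclear members with levels like that of AK4, AK1 (ENSG00000106992, chromosome 9, 127866486 to 127877675, minus strand) was at 15.1, 10.6 and 9.73 FPKM in the treated samples and at 8.85, 12.4 and 7.83 FPKM in the untreated samples. The groups overlapped, with PANC-1 2 above MA PANC-1 2 and 3. AK1 had a log2 fold change of 0.32 with a standard error of 0.23 (adjusted p = 0.604 by edgeR's quasi-likelihood test). Without PANC-1 2 it was 0.54, with an unadjusted p of 0.0497 and an adjusted p of 0.621 in the same edgeR test. Leaving out MA PANC-1 1 brought it to 0.12 and leaving out PANC-1 3 to 0.18. AL157935 is listed over the same stretch and strand. Its counts were 68, 546 and 829 counts in the treated samples and 1012, 54 and 413 in the untreated samples. AK1 was highest in its group in the sample where AL157935 was lowest, in both groups. With the counts of its overlapping genes added, AK1 had 2727, 2642 and 2583 counts in the treated and 2938, 2573 and 1853 in the untreated samples, a log2 fold change of 0.29 with a standard error of 0.14 (adjusted p = 0.470 by edgeR).

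AK6 (ENSG00000085231, chromosome 5, 69350984 to 69369520, minus strand) shares its start with TAF9, a subunit of the general transcription factor TFIID, on the same strand. AK6 was at 14.4, 9.21 and 17.5 FPKM in the treated samples and at 7.98, 12.6 and 13.9 FPKM in the untreated samples. The groups overlapped, and MA PANC-1 2 and PANC-1 1 were the low samples. For AK6 the log2 fold change was 0.28 with a standard error of 0.27 (adjusted p = 0.697 by edgeR's quasi-likelihood test). It was 0.47 without MA PANC-1 2, 0.43 without PANC-1 3, 0.07 without PANC-1 1 and 0.09 without MA PANC-1 3. TAF9 had 4766 to 6411 counts over the 6 samples and a log2 fold change of 0.05 with a standard error of 0.15, and the counts of AK6 summed with its overlapping genes gave 0.11 (standard error 0.16, adjusted p = 0.821 by edgeR).

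The remaining 4 members were present at low levels in both groups. AK8 (ENSG00000165695, chromosome 9, 132725578 to 132878777, minus strand) was at 0.301, 0.343 and 0.424 FPKM in the treated samples and at 0.292, 0.194 and 0.226 FPKM in the untreated samples. All treated samples lay above all untreated ones, with a small gap between MA PANC-1 1 and PANC-1 1. An exact two-sided permutation test can give no p below 0.1 in this design, and none was run. AK8 had a log2 fold change of 0.60 with a standard error of 0.32 (adjusted p = 0.501 by edgeR's quasi-likelihood test), from 56 to 81 counts in the treated and 43 to 68 in the untreated samples. Of all genes tested, 8.79% were higher after MA with no overlap between the groups, and AK8 was 1 such gene among the 6 other members tested.

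AK7 (ENSG00000140057, chromosome 14, 96392128 to 96489427, plus strand) was at 0.273, 0.136 and 0.286 FPKM in the treated samples and at 0.188, 0.289 and 0.430 FPKM in the untreated samples. Its groups overlapped, and its log2 fold change was −0.36 (standard error 0.41, adjusted p = 0.746 by edgeR's quasi-likelihood test). This value for AK7 was −0.61 without PANC-1 1, −0.02 without PANC-1 3 and −0.12 without MA PANC-1 2. AK9 (ENSG00000155085, chromosome 6, 109492856 to 109691217, minus strand), a large member with a broad range of nucleotide substrates, was at 0.279, 0.140 and 0.367 FPKM in the treated samples and at 0.231, 0.132 and 0.244 FPKM in the untreated samples. Replicate 2 was the lowest sample of AK9 in both groups, and the groups overlapped. AK9 was at a log2 fold change of 0.39 with a standard error of 0.39 (adjusted p = 0.706 by edgeR), which became 0.67 without MA PANC-1 2, 0.16 without PANC-1 2 and 0.09 without MA PANC-1 3. AK5 (ENSG00000154027, chromosome 1, 77282019 to 77559966, plus strand), a cytosolic form known mainly from brain, was at 0.0541 to 0.103 FPKM in the treated and 0.0523 to 0.111 FPKM in the untreated samples. Its mean was below the 0.1 FPKM required for the test, so 7 of the 8 members were tested.

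**Figure D3:**
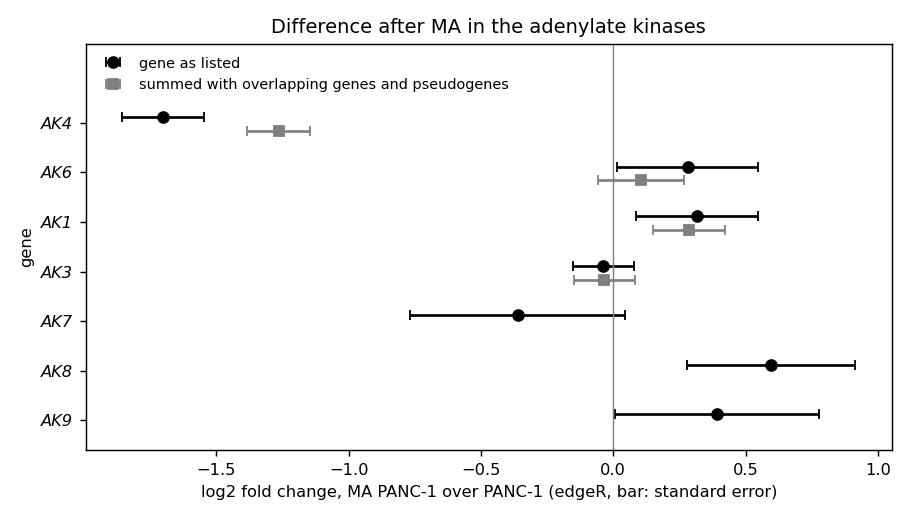
Log2 fold change of MA PANC-1 over PANC-1 cells from edgeR with bars of 1 standard error for the 7 members tested (black), and for 4 of them after summing their counts with overlapping genes and pseudogenes (grey). AK4 lies at −1.70 and at −1.26 after summing, and the other 6 members lie between −0.36 and 0.60.

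Beside AK4, none of the 6 members tested had an unadjusted p under 0.05 or an adjusted p under 0.05 in edgeR's quasi-likelihood test, in DESeq2 or in limma on log2 FPKM. The background in edgeR was 11.2% of all genes tested at the unadjusted and 0.0394% at the adjusted threshold, and 1.92% for an unadjusted p under 0.05 with a 2-fold change. AK7, AK8 and AK9 had 43 to 260 counts per sample and standard errors of 0.32 to 0.41.

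The members fell into the same 2 tiers in both groups. In PANC-1 cells the order by mean level was AK4 at 13.7, AK6 at 11.5 ± 3.10, AK1 at 9.69 ± 2.39 and AK3 at 7.10 ± 0.210 FPKM (SD, n = 3), followed by AK7 at 0.302, AK8 at 0.237, AK9 at 0.202 and AK5 at 0.0790 FPKM. The values of AK4 and AK6, and those of AK6 and AK1, overlapped, whereas AK3 lay below AK1 in all 3 samples. AK7, AK8 and AK9 overlapped with their neighbours, and AK5 lay below AK9. In MA PANC-1 cells AK4 came, at 4.09 FPKM, after AK6 at 13.7 ± 4.19, AK1 at 11.8 ± 2.92 and AK3 at 6.77 ± 0.980 FPKM (SD, n = 3). The highest AK4 value there, as listed without its pseudogenes, was below the lowest AK3 value, and AK6 and AK1 overlapped. Next came AK8 at 0.356, AK9 at 0.262 and AK7 at 0.231 FPKM, and then AK5 at 0.0832 FPKM. AK9 overlapped with both AK8 and AK7, whereas AK8 lay above AK7, and AK7 above AK5, in all treated samples.

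The summed FPKM of the 8 members was 41.4, 30.6 and 40.0 in the treated samples and 40.4, 47.3 and 40.7 in the untreated samples. The groups overlapped, and MA PANC-1 2 was the lowest sample. AK4 made up 9.56%, 14.3% and 9.88% of this sum in the treated samples and 38.8%, 30.2% and 27.4% in the untreated samples. The share of AK4 was the larger in each untreated sample, which follows from the levels that chose it.

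Since AK4 is known as a target of the hypoxia factor HIF-1, its promoter is shown with the letters of the core of the hypoxia response element. The stretch is the RefSeq promoter of AK4 in GRCh38.p14, chr1:65147302-65147601 on the plus strand, with 250 bases before and 50 after the start, 1 of 4 RefSeq promoters of the gene. Matches to ACGTG and GCGTG, searched on both strands, are in capitals:
AK4 promoter: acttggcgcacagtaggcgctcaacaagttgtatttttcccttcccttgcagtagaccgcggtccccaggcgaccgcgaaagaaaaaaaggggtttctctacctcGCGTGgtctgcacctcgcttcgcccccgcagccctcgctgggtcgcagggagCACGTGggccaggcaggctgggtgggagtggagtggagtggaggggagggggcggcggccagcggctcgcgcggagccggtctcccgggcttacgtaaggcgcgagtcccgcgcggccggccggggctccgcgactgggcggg
ACGTG occurred on both strands at the same place, as the overlapping parts of CACGTG, and GCGTG occurred once, on the plus strand. Of 35116 promoters of this length, 21.4% held ACGTG and 36.5% held GCGTG on either strand. These matches describe the letters of the window and no binding was measured.

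Of 18 known HIF-1 targets, 17 were tested, and 13 of them had a log2 fold change above 0, as did 49.8% of all genes tested. The median was 0.22 on the log2 scale, against −0.0017 over all genes tested. In edgeR's quasi-likelihood test 4 genes had an unadjusted p under 0.05, all higher after MA, against 5.37% of all genes tested in that direction, and no gene had an adjusted p under 0.05. SLC2A1, the glucose transporter GLUT1, was at 28.6, 28.7 and 24.6 FPKM in the treated samples and at 20.5, 21.5 and 21.4 FPKM in the untreated samples. The groups did not overlap, and its log2 fold change was 0.41 (standard error 0.11, adjusted p = 0.388 by edgeR). The other 3 were P4HA2, a collagen prolyl hydroxylase, at 0.37 (standard error 0.13), and the glycolytic enzymes PGK1, at 0.27 (standard error 0.10), and ENO1, at 0.29 (standard error 0.12), with adjusted p from 0.429 to 0.445 by edgeR. ENO1 was the highest of the list, at a mean of 673 FPKM in PANC-1 and 797 FPKM in MA PANC-1 cells. The lowest log2 fold change of the list was −0.11. SLC2A1 kept an unadjusted p under 0.05 in all 10 alternatives with 6 samples and with each sample left out. P4HA2 lost it without MA PANC-1 1 or any 1 of the PANC-1 samples. PGK1 lost it with the replicate block and without MA PANC-1 1 or 2 or PANC-1 1 or 2. ENO1 lost it in DESeq2, under both other normalizations, with no filter and without any sample but MA PANC-1 3, and was at 0.17 without MA PANC-1 2.

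AMP, a substrate of the adenylate kinases, is also made and removed by other enzymes, and 13 of 18 symbols of AMP metabolism were tested. In edgeR's test 3 of them had an unadjusted p under 0.05, all lower after MA, and the median log2 fold change of the list was −0.15. The sign of this median rested on single samples, since it was 0.04 without MA PANC-1 1, 0.03 without MA PANC-1 3, −0.02 without PANC-1 2, −0.03 without PANC-1 3 and −0.26 without PANC-1 1. The background in this direction was 5.86% of all genes tested. NT5E, the ectonucleotidase CD73 that splits AMP into adenosine at the cell surface, was at 30.8, 26.8 and 38.5 FPKM in the treated samples and at 54.3, 54.8 and 52.3 FPKM in the untreated samples. All treated samples were below all untreated ones. Its log2 fold change was −0.72 (standard error 0.12, adjusted p = 0.196 by edgeR), and in DESeq2 it had an adjusted p of 3.39e-04, the 1 gene of all lists under 0.05 in that test. ADSS, which opens the branch from IMP to AMP, was at 11.2, 9.28 and 12.4 FPKM in the treated and 15.1, 13.7 and 16.0 FPKM in the untreated samples, with no overlap and a log2 fold change of −0.41 with a standard error of 0.12 (adjusted p = 0.388 by edgeR). AMPD3, an AMP deaminase, had a log2 fold change of −0.40 with a standard error of 0.15 (adjusted p = 0.431 by edgeR). NT5E and ADSS kept an unadjusted p under 0.05 in all 10 alternatives with 6 samples and with each sample left out, and AMPD3 lost it without MA PANC-1 3, PANC-1 1 or PANC-1 2.

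AMP-activated protein kinase (AMPK) senses the AMP that adenylate kinases produce. Of 11 genes for its subunits and upstream kinases 10 were tested, with a median log2 fold change of −0.10. The median was −0.20 without PANC-1 1, −0.17 without MA PANC-1 3, −0.05 without MA PANC-1 2, −0.04 without PANC-1 2 and −0.0029 without PANC-1 3. PRKAA1, a catalytic subunit, was the 1 gene of these 10 with an unadjusted p under 0.05 in edgeR. This is near the background of 11.2% of all genes tested in either direction. PRKAA1 had a log2 fold change of −0.41 with a standard error of 0.17 (adjusted p = 0.442 by edgeR). It was at 9.03, 6.44 and 10.7 FPKM in the treated and 12.3, 10.3 and 12.9 FPKM in the untreated samples. Its groups overlapped, in that MA PANC-1 3 lay above PANC-1 2. PRKAA1 lost the unadjusted threshold in the limma fits and without any sample but MA PANC-1 3 and PANC-1 2, and was at −0.26 without MA PANC-1 2. The other catalytic subunit, PRKAA2, was also at −0.41 (standard error 0.18) and passed the unadjusted threshold in DESeq2 and without MA PANC-1 3, and fell short of it at −0.24 without MA PANC-1 2. The regulatory subunit PRKAB2 was at −0.20 (standard error 0.14) and PRKAG1, the highest of the list, at −0.15 (standard error 0.14), with adjusted p of 0.593 and 0.697 by edgeR. With single samples left out PRKAB2 ran from −0.28 to −0.09 (the latter MA PANC-1 2) and PRKAG1 from −0.25 (PANC-1 1) to −0.0074 (PANC-1 3).

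The carriers and channels that take adenine nucleotides across the mitochondrial membranes numbered 12, of which 11 were tested, and 10 of the 11 had a log2 fold change above 0, beside 49.8% of all genes tested. Their median was 0.14, which left-out samples moved to 0.22 (MA PANC-1 1) and 0.05 (MA PANC-1 2). SLC25A23, a carrier of ATP-Mg and phosphate, was higher after MA in all treated samples, with a log2 fold change of 0.32 with a standard error of 0.13 (adjusted p = 0.435 by edgeR). Its relative SLC25A24 was lower, at −0.29 (standard error 0.12, adjusted p = 0.444), and these were the 2 genes with an unadjusted p under 0.05, where the background in either direction was 11.2%. SLC25A23 lost this threshold with the replicate block and without MA PANC-1 2, PANC-1 1 or PANC-1 2. Leaving out MA PANC-1 2 put SLC25A23 at 0.21 and SLC25A24 at −0.18. SLC25A24 lost it in DESeq2, in the limma fits, with halved counts and without any sample but MA PANC-1 2 and 3. The related SLC25A25 was at 0.34 (standard error 0.15, adjusted p = 0.451) and passed the unadjusted threshold in DESeq2, with the replicate block and without PANC-1 2. The ADP/ATP exchanger SLC25A5, the highest of the list, had a mean of 222 FPKM in PANC-1 and 234 FPKM in MA PANC-1 cells and a log2 fold change of 0.12 with a standard error of 0.09, or 0.05 with MA PANC-1 2 left out.

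Other kinases of small nucleotides were set beside the adenylate kinases. Of 13 nucleoside monophosphate and salvage kinases 12 were tested, with a median log2 fold change of 0.01, which ran from −0.05 without PANC-1 2 to 0.09 without MA PANC-1 3. The thymidine kinase TK1 had 47.6, 62.6 and 47.0 FPKM in the treated and 36.4, 40.4 and 45.7 FPKM in the untreated samples, with no overlap. Its log2 fold change was 0.41 (standard error 0.17, adjusted p = 0.441 by edgeR). It was the 1 gene of the 12 tested with an unadjusted p under 0.05 in edgeR, near the background of 11.2% of all genes tested in either direction. TK1 lost this threshold under upper quartile normalization and without PANC-1 1, PANC-1 2 or MA PANC-1 2, the last at 0.21. Guanylate kinase GUK1 was at 0.23 (standard error 0.15) and deoxycytidine kinase DCK at −0.21 (standard error 0.16). With MA PANC-1 2 left out they were at 0.09 and −0.07, and DCK was at −0.31 with MA PANC-1 1 left out. All 7 nucleoside diphosphate kinases were tested. None had an unadjusted p under 0.05 in edgeR, which in so few genes is near the background of 11.2%. Their median was 0.10, or 0.04 with MA PANC-1 2 left out. Among them NME3 was at 0.48 (standard error 0.26), and without MA PANC-1 3 at 0.64 with an unadjusted p of 0.0460 by edgeR, but at 0.20 with MA PANC-1 2 left out. NME7 was at −0.23 (standard error 0.13), NME6 at 0.22 (standard error 0.13) and the most abundant, NME2, at 0.12 (standard error 0.10). With single samples left out NME6 ran from 0.12 (PANC-1 1) to 0.31, and NME2 from 0.04 (MA PANC-1 2) to 0.19 (MA PANC-1 3). NME5, named after its values were seen because it lies lower than AK4, was at −1.86 with a standard error of 1.11.

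The creatine kinases, which also buffer ATP, had 3 of 5 genes tested. None had an unadjusted p under 0.05 in edgeR, where the background was 11.2% of all genes tested in either direction. CKB, the cytosolic brain form, was at 0.28 (standard error 0.13), and without MA PANC-1 2 at 0.38 with an unadjusted p of 0.0132 by edgeR, but at 0.16 with MA PANC-1 1 left out. The near-identical copies of the mitochondrial form, CKMT1A and CKMT1B, whose reads may be divided between them, were at 0.44 (standard error 0.28) and 0.08 (standard error 0.22), and CKMT1A ran from 0.26 to 0.62 with single samples left out. Of 11 symbols of thiamine metabolism, the second KEGG pathway that holds AK4, 10 were in the deposited data and 7 were tested. None had an unadjusted p under 0.05 in edgeR, beside the same background of 11.2%. The median of this list was 0.21, which left-out samples moved to 0.05 (MA PANC-1 2) and 0.11 (PANC-1 1). The thiamine transporter SLC19A2 was at 0.40 (standard error 0.23) and passed the unadjusted threshold with the replicate block and without PANC-1 1, at 0.61, but was at 0.21 with PANC-1 2 left out. The alkaline phosphatase ALPP was at 0.83 (standard error 0.66), or 0.27 to 1.41 with single samples left out, and the cysteine desulfurase NFS1, the most abundant, at 0.05 (standard error 0.13).

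**Figure D4:**
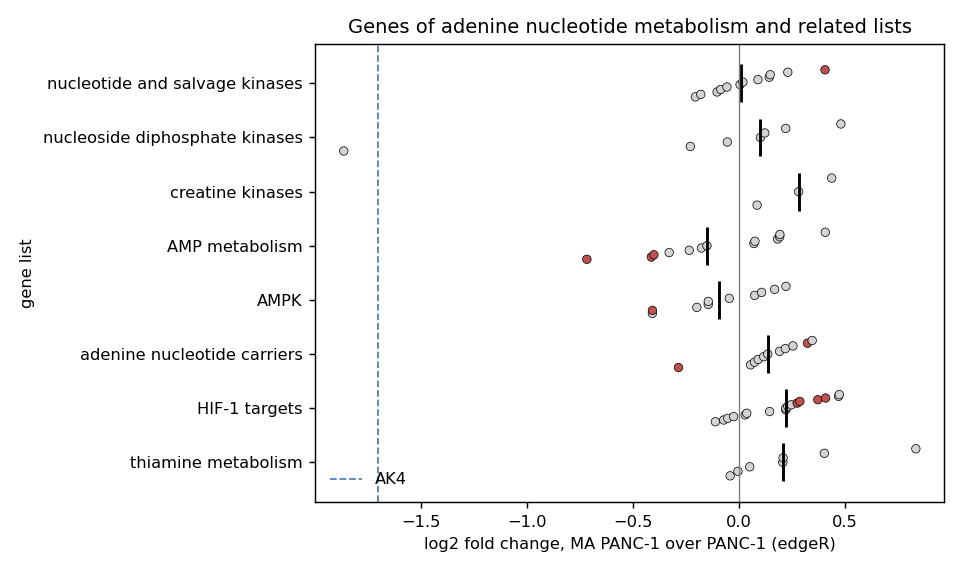
Log2 fold change of MA PANC-1 over PANC-1 cells from edgeR for each tested gene of 8 lists (points, red for an unadjusted p under 0.05), with the median of each list as a bar and AK4 as a dashed line. The medians lie between −0.15 and 0.28, and NME5, at −1.86 with a standard error of 1.11, is the point beyond the line of AK4.

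Over all 8 lists, 80 genes were tested, and 11 of them had an unadjusted p under 0.05 in edgeR's test, 5 lower and 6 higher after MA. This is 13.75% of the genes listed, near the 11.2% of all genes tested. The groups did not overlap in FPKM in 14 of the 80, against 19.9% of all genes tested. None had an adjusted p under 0.05 in edgeR or limma.

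The genes around AK4 were compared next. Of 24 genes listed within 500000 bases of either end of AK4, 6 were tested. None of the 6 had an unadjusted p under 0.05 in edgeR's quasi-likelihood test, DESeq2 or limma. With so few genes this is near the background in edgeR, which was 11.2% of all genes tested in either direction. Upstream lay CACHD1, RAVER2 and the kinase gene JAK1, with log2 fold changes of −0.14, −0.13 and −0.04 and standard errors of 0.09 to 0.10. CACHD1 was at −0.07 with MA PANC-1 1 left out. It was at 5.79, 6.22 and 6.88 FPKM in the treated and 7.21, 7.04 and 7.09 FPKM in the untreated samples, and RAVER2 was at 4.87 to 5.77 against 5.89 to 6.38 FPKM. In these 2 of the 6 neighbours the groups did not overlap, both lower after MA, where the background was 11.1% of all genes tested. Downstream, DNAJC6, the nearest, begins 16074 bases from AK4 and was at −0.07 (standard error 0.21). The leptin receptor gene LEPR was at −0.23 (standard error 0.22), and with single samples left out it ran from −0.43 (MA PANC-1 3) to −0.08 (MA PANC-1 2). LEPROT overlaps LEPR on its strand. It had 937, 2965 and 928 counts in the treated samples and 5015, 1279 and 4771 in the untreated samples. Replicate 2 of each group lay among the values of the other group. The log2 fold change of LEPROT was −1.05 with a standard error of 0.62 (adjusted p = 0.529 by edgeR), and it was −1.81 without MA PANC-1 2 (unadjusted p = 0.0251, adjusted p = 0.443 by edgeR) and −1.47 without PANC-1 2 (unadjusted p = 0.0260, adjusted p = 0.621 by edgeR).

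**Figure D5:**
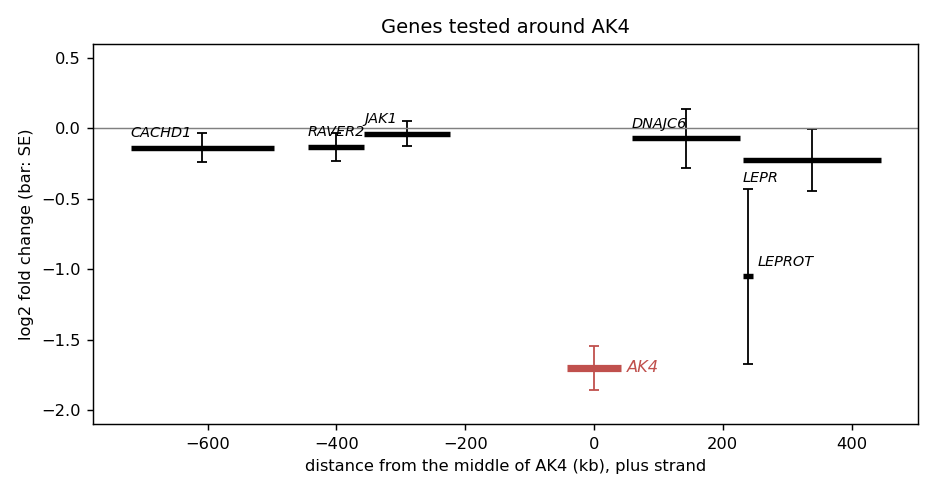
Log2 fold change of MA PANC-1 over PANC-1 cells from edgeR (vertical bars, 1 standard error) of AK4 and the 6 genes tested around it, drawn as thick lines over their span against the distance from the middle of AK4 in kilobases. AK4 lies at −1.70 and LEPROT at −1.05 with a wide error, and the other 5 genes lie between −0.23 and −0.04.

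Among 11469 genes with a mean of at least 1 FPKM, those whose values over the 6 samples followed AK4 most closely, by Pearson's r of log2(FPKM + 0.1), were OTUB2 (0.992), CHD5 (0.989), CPPED1 (0.987), BIRC6 (0.984) and CROCCP2 (0.984). With 2 groups of 3 samples such values mostly describe the difference between the groups and are given with no test. OTUB2, a deubiquitinating enzyme, was at 6.86, 6.75 and 6.82 FPKM in the treated samples and at 9.92, 9.41 and 9.29 FPKM in the untreated samples. It separated the groups as AK4 did, at a smaller size, with a log2 fold change of −0.45 with a standard error of 0.10. The log2 fold changes of the other 4 were between −0.50 and −0.17.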

How the data were processed

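PANC-1 RNA was sequenced from 3 MA treated and 3 untreated samples, as poly(A) libraries with dUTP strand marking and paired reads of 150 bases. Per the labels, the authors' processing notes name cutadapt 1.9, HISAT2 2.0.4, StringTie 1.3.4d, edgeR and DESeq2. The authors deposited FPKM per gene and sample (a gene without reads is mostly listed at 0.0001) and estimated counts, whole numbers that are not normalized. The totals of the estimated counts exceed the valid reads listed by the study. The counts alone therefore do not give the precision, which also rests on the spread between replicates. Positions are GRCh38, and 47519 of the 58825 genes have those of GENCODE release 29.

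Genes were kept at a mean of 0.1 FPKM or more, and these 17774 were tested with edgeR 4.0.16 (R 4.3.3), the quasi-likelihood test on the deposited counts with TMM, with Benjamini-Hochberg adjustment over all of them. The standard error is the log2 fold change divided by the square root of F. The fit was tested on simulated data. Alternatives used DESeq2 1.42.0, limma 3.58.1 on log2 FPKM, other normalizations, filters, pseudocounts of 0.1, 1 and 0.01, halved counts, a replicate block, left-out samples and summed overlapping genes. Sequences were aligned with Biopython 1.88.

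The genes named are the 8 members, all genes tested within 500000 bases of AK4, overlapping genes and pseudogenes with counts, from each list the 3 with the smallest p and the most abundant, and the 5 most like AK4. Some items of this rule are not reported here. The members and lists were chosen with earlier results of these data known. The proteome and other assays of the study were not analysed here.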

Additional observations from a re-analysis of the deposited data

How the results depend on the processing

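The log2 fold change of AK4 moved from −1.70 to −1.26 when its counts were summed with its pseudogenes, and stayed between −1.74 and −1.52 in the other alternatives that used all 6 samples. With single samples left out it was −1.83 to −1.60. The number of genes with an adjusted p under 0.05, 7 in edgeR, was 263 in DESeq2, 12 with a filter at a mean FPKM of 1, and 3 to 24 with single samples left out (3 without PANC-1 2, 4 without MA PANC-1 1, 24 without MA PANC-1 2). At an unadjusted p under 0.05 it was 1178 to 3213 with single samples left out, against 1995 (3213 without MA PANC-1 3, 1178 without PANC-1 1 and 1201 without PANC-1 3). With a 2-fold change required as well it was 342, and 44 in limma with a pseudocount of 1, 93 with a filter at a mean FPKM of 1, 569 with no filter and 326 to 534 with single samples left out (534 without MA PANC-1 3). The cause was not tested. Among the listed genes the 11 at an unadjusted p under 0.05 became 4 to 16 with single samples left out (4 without PANC-1 1, 6 without PANC-1 2, 7 without MA PANC-1 1 or PANC-1 3), and 1 passed the adjusted threshold in DESeq2. The list medians depended on the settings with all 6 samples. In limma with any of the 3 pseudocounts the median was 0.08 for the carriers, 0.06 for the diphosphate kinases and −0.03 for the monophosphate kinases. In limma with a pseudocount of 1 it was −0.06 for AMP metabolism, 0.15 for the HIF-1 targets, 0.16 for the creatine kinases and 0.04 for thiamine metabolism, which was at 0.12 with a pseudocount of 0.1. With a filter at a mean FPKM of 1 it was −0.07 for AMP metabolism, 0.11 for thiamine metabolism and −0.0089 for the monophosphate kinases, whose median of 0.01 was also −0.00077 under upper quartile normalization, 0.0047 with no filter and 0.0053 with the replicate block. The creatine kinase median was also 0.16 without MA PANC-1 1. In limma with that pseudocount, which lessens differences of low genes, AK7, AK8 and AK9 were at −0.08, 0.13 and 0.07. Among the adenylate kinases beside AK4, and among the genes around it, the count of 0 became 0 to 1, by AK1 without PANC-1 2 and by LEPROT without PANC-1 2 or MA PANC-1 2.

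Fold changes near 0 changed sign with single samples left out. They ranged from −0.109 to 0.039 in AK3, −0.50 to 1.08 in AL157935, −0.17 to 0.32 in AK4P3, −0.17 to 0.057 in AK4P1, −0.029 to 0.169 in TAF9, −0.091 to 0.025 in JAK1, −0.18 to 0.11 in DNAJC6, −0.0094 to 0.152 in CKMT1B and −0.044 to 0.136 in NFS1. The replicate numbers were not taken as pairing the samples, since deviations of same-numbered samples correlated at 0.0434, 0.0914 and 0.126, though each sample correlated best with its own number. With the replicate block, AK4 was at −1.69, and 0 genes had an adjusted p under 0.05. With 3 samples a group, the standard error was largest in AK7, AK8 and AK9 among the members tested. The pooled SD within groups of log2 counts scaled to depth was 0.554 in AK7 and 0.565 in AK9, above the other members. In AK8 it was 0.252, below the 0.341 of AK1 and the 0.420 of AK6. The standard error of AK8 was nevertheless larger, at 0.32 against 0.23 and 0.27. What set the precision of each member was not tested.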
